A study of Mus musculus with 12 samples.

Results

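Transcript levels of 9 mouse genes of fibroblast growth factor (FGF) signalling were followed across injury of the lung epithelium: the receptor genes Fgfr1, Fgfr2, Fgfr3 and Fgfr4, the Sprouty genes Spry1, Spry2 and Spry4, the phosphatase gene Dusp6 and the transcription factor gene Etv4. The genes were taken by name, from a list drawn up with earlier results of these data known, and are 9 of the 14179 genes in the deposited tables. The RNA came from sorted alveolar epithelium of C57BL/6 mice aged 8 to 10 weeks, in 4 groups of 3 libraries. One group received saline, another LPS (lipopolysaccharide, a bacterial cell wall component that causes acute inflammation) at 2 mg/kg and was taken after 1 day, and the remaining groups received bleomycin (a drug that injures the lung and leads to fibrosis) at 1.5 U/kg and were taken after 2 weeks or 4 weeks. All agents, saline included, went into the trachea, and the labels name no genetic change in any group. Cells that bound antibodies to CD16/32, CD45, CD31, CD90, Ter119 or PDGFRα were removed from digested lung, and cells positive for EpCAM, a surface protein of epithelial cells, were kept. Whether a library stands for one animal, a pool or a repeat of the same cells is not in the labels, so p-values measure the spread among these samples alone, and that spread may be technical.

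FGF ligands bind receptor tyrosine kinases together with heparan sulfate, and the receptors pass the signal through adaptor proteins and RAS to the kinase ERK. ERK activity switches on genes that dampen the same pathway, among them the Sprouty genes and Dusp6, and genes of the ETS factors Etv4 and Etv5, which act as its transcriptional arm. In the mouse lung, signals from mesenchymal Fgf10 and Fgf7 through the epithelial form of Fgfr2 drive branching and maintain alveolar type 2 cells, and Sprouty proteins limit that response. Transcript levels of these genes do not measure receptor or ERK activity.

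Values are FPKM, fragment counts relative to transcript length and to the size of the library, so levels of different genes can be set side by side. The files hold no read counts, and sequencing depth is unknown. One library, number 2 of the 4-week group, stood apart: 45.4% of genes were listed at 0 in it, against 0.0074% to 0.577% in the other 11, Epcam itself was listed at 0, and its correlation with the others across genes was 0.551 to 0.637, against 0.855 to 0.988 among the other 11. Each value that includes it is named as such or given beside one without it. Another 4-week library has a column number that no sample label carries, and is called the unnumbered library. Marker genes of alveolar type 2 cells summed to 14956 to 19292 FPKM in saline, those of club cells, an airway type, to 13876 to 19021, those of fibroblasts and smooth muscle to 2930 to 3588 and those of alveolar type 1 cells to 685 to 1023, so the preparation held RNA of airway and mesenchymal cells beside the labelled alveolar epithelium. With bulk RNA, fewer cells of a type and less RNA per cell cannot be told apart.

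In saline, Spry1, Spry2 and Dusp6 had the highest FPKM of the 9 genes. Spry1 stood at 51.0 ± 4.57 FPKM (SD, n = 3, as for every group mean below unless stated), Spry2 at 40.3 ± 3.75 and Dusp6, which encodes a cytoplasmic phosphatase that inactivates ERK, at 38.0 ± 3.16. Fgfr2 was the most abundant receptor at 17.1 ± 2.10 FPKM, followed by Fgfr4 at 13.6 ± 1.73, Fgfr1 at 9.87 ± 1.35 and Fgfr3 at 7.10 ± 0.618. Spry4 stood at 12.4 ± 0.704 and Etv4 at 0.0534 ± 0.0463 FPKM. In that order of levels Spry2 overlapped with Dusp6, and Fgfr4 with Spry4, while all other neighbours were separate in the 3 saline libraries.

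The 250 bases before the RefSeq transcription start (build GRCm38.p6) are printed for 3 genes that differed in how they behaved across the injuries: Fgfr4, the receptor with the largest loss after LPS; Spry1, the Sprouty gene with the largest loss; and Dusp6, a feedback gene that was higher at 2 weeks of bleomycin. Capitals mark a match to AGGAAG on either strand, a core bound by ETS factors of the Etv4 group.
Fgfr4, chr13:55152568-55152817, plus strand: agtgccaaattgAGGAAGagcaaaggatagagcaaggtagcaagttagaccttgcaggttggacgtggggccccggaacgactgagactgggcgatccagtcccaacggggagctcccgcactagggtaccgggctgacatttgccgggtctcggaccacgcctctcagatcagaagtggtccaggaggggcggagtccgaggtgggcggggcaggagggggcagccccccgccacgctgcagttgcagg
Spry1, chr3:37639697-37639946, plus strand: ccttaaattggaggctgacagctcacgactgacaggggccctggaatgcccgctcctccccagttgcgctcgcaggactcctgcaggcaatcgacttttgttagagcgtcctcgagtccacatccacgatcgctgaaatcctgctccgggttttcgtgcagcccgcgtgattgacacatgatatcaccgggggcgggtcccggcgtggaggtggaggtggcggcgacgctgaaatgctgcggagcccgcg
Dusp6, chr10:99262981-99263230, plus strand: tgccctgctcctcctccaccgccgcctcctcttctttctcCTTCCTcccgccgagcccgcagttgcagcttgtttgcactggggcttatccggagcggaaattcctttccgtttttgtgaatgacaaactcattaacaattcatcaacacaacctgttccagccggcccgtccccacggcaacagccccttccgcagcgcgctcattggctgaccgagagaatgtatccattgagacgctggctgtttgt
The match lay 238 bases before the RefSeq start in Fgfr4 and, on the minus strand, 210 bases before it in Dusp6, and the Spry1 window held none. The GENCODE annotation starts Fgfr4 at base 55152640, inside the printed window and after the match. Much of that window thus lies within the annotated gene, and the distance holds for the RefSeq start alone. Of 32851 mouse promoter windows of this length, 29.5% held AGGAAG on either strand. The letters CCGGAAG (a longer ETS motif, in 6.91% of windows), TGANTCA (the AP-1 motif, 6.75%), TGACGT (6.47%) and TATAAA (12.4%) were also searched on both strands and occurred in none of the 3 windows, so no matches overlapped. GC content was 64.0% for Fgfr4, 62.4% for Spry1 and 56.4% for Dusp6, against a median of 52.4% over all windows. RefSeq windows were found for 6 of the 9 genes.

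One day after LPS, all 4 receptor genes and 2 of the 3 Sprouty genes fell against saline, while Spry4 and Dusp6 did not pass the test; with libraries scaled to equal Epcam, an epithelial gene, Fgfr1 and Fgfr3 no longer passed and Spry2 was no longer lower, which left Fgfr2, Fgfr4 and Spry1. The comparison asks how the FGF arm of the epithelium stands in acute inflammation. The 6 genes called were 6 of 8 tested (limma on log2(FPKM + 1), Benjamini-Hochberg adjusted over all genes, threshold 0.05), all lower. Etv4 has no value for LPS. Genes listed for LPS had a mean of 0.5002 FPKM or more in LPS or saline, and whether Etv4 lay under that limit was not tested. Of all 12456 genes tested, 40.2% passed, 25.9% lower and 14.2% higher, so LPS changed a large part of the transcriptome and the members' share of calls is read against that. The median log2 fold change was -1.34 over the 4 receptors and -0.69 over the 3 Sprouty genes, against -0.22 over all genes.

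Fgfr4, a receptor for both hormone-like and local FGFs, read 15.5, 12.4 and 12.7 FPKM in saline libraries 1 to 3 and 2.75, 2.21 and 0.923 FPKM after LPS. The groups lay far apart, with the highest LPS library far below the lowest saline one. The change was -2.35 ± 0.26 (log2 fold change ± SE, adjusted p = 0.000294), lower than that of all but 0.257% of genes tested. Fgfr2, which encodes the receptor of Fgf7 and Fgf10 in epithelium, read 15.7, 19.5 and 16.0 FPKM in saline and 7.23, 4.19 and 4.88 after LPS, again without overlap. Its change was -1.51 ± 0.21 (adjusted p = 0.000958).

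Fgfr3 read 7.64, 6.43 and 7.23 FPKM in saline and 3.44, 1.82 and 2.65 after LPS, and fell by 1.18 ± 0.21 on the log2 scale (adjusted p = 0.00286). Fgfr1, which in the lung is prominent in mesenchymal cells, read 8.31, 10.7 and 10.6 FPKM in saline and 6.23, 5.18 and 3.88 after LPS. Its loss was the smallest of the 4 receptors, -0.84 ± 0.20 (adjusted p = 0.0119), and it missed the threshold without saline library 2 (0.0575) or 3 (0.0599). None of the receptors overlapped between LPS and saline.

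Among the Sprouty genes, whose products are membrane-associated inhibitors of receptor tyrosine kinase signalling, Spry1 read 46.4, 55.6 and 51.0 FPKM in saline and 20.8, 11.5 and 15.0 after LPS. This was a fall of 1.67 ± 0.22 on the log2 scale (adjusted p = 0.000691), lower than all but 1.64% of genes. Spry2 read 37.4, 44.5 and 38.9 FPKM in saline and 30.2, 17.5 and 27.8 after LPS, with no overlap but a smaller change of -0.69 ± 0.22 (adjusted p = 0.0341). It missed the threshold when saline library 1 (adjusted p = 0.0730), 2 (0.124) or 3 (0.0930) or LPS library 3 (0.0664) was omitted, and by median-ratio scaling (0.143). Spry4 read 12.7, 11.6 and 12.9 FPKM in saline and 14.3, 6.68 and 10.1 after LPS, so LPS library 1 stood above all saline libraries and the others below. The difference was -0.29 ± 0.25 (adjusted p = 0.36, 95% interval -0.85 to 0.27).

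Dusp6 read 35.1, 41.4 and 37.6 FPKM in saline and 36.4, 20.5 and 29.8 after LPS, with LPS library 1 inside the saline range. The difference of -0.42 ± 0.22 did not pass (adjusted p = 0.15, 95% interval -0.91 to 0.07), although it did without LPS library 1 (adjusted p = 0.0363). The 6 genes that passed were also those whose groups did not overlap; over all genes tested, 35.8% were lower without overlap after LPS. In 1 fit of all 12 libraries, which takes in 4-week library 2, only Fgfr4 passed after LPS and no member at 2 weeks; in the authors' deposited table Fgfr1 (q = 0.0579) and Spry2 (0.122) were above 0.05 after LPS.

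At 2 weeks after bleomycin, the members moved in both directions: Fgfr1, Spry4 and Dusp6 rose and Fgfr2, Fgfr3, Fgfr4, Spry1 and Spry2 fell; with libraries scaled to equal Epcam, Spry1 and Spry2 lost that direction and Fgfr3 and Fgfr4 no longer passed. These 8 genes passed the threshold and none overlapped between groups. Over all 12725 genes tested 29.8% passed, 18.0% higher and 11.8% lower; 28.4% were higher and 18.8% lower without overlap. Etv4 passed the filter on low values only through its level in the 2-week group, so it had to differ, and its values are given as a description and it is left out of the count.

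Fgfr2 read 5.61, 4.19 and 6.30 FPKM at 2 weeks, about as low as after LPS and far below all saline libraries. It fell by 1.51 ± 0.15 on the log2 scale (adjusted p = 0.000538). Fgfr4 read 7.31, 5.30 and 7.06 FPKM, between the LPS and saline ranges, and fell by 0.95 ± 0.14 (adjusted p = 0.00275). Fgfr3 read 5.67, 3.95 and 4.60 FPKM and fell by 0.51 ± 0.13 (adjusted p = 0.0245), a call lost without 2-week library 2 (0.0637) or 3 (0.0826) or saline library 1 (0.0651) or 3 (0.0774).

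Fgfr1 was the receptor that rose: it read 16.7, 13.5 and 16.4 FPKM at 2 weeks, all above the highest saline library, a change of 0.61 ± 0.13 (adjusted p = 0.0111). Fibroblast and smooth muscle markers, 14 genes, summed to 3004 to 3604 FPKM at 2 weeks, 2930 to 3588 in saline and 1157 to 1599 after LPS; 6 of them rose and 2 fell at 2 weeks, and 1 rose and 8 fell after LPS. With libraries scaled to equal Epcam, 9 of these markers rose and 1 fell at 2 weeks, and 1 rose and 2 fell after LPS. The part of mesenchymal RNA in the Fgfr1 values was not tested.

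The Sprouty genes divided at 2 weeks. Spry1 read 32.4, 32.7 and 39.6 FPKM and fell by 0.54 ± 0.11 on the log2 scale (adjusted p = 0.0104). Spry2 read 27.3, 29.9 and 31.8 FPKM and fell by 0.43 ± 0.10 (adjusted p = 0.0157), which missed the threshold without saline library 2 (0.0519). Spry4, an inhibitor of the same family, read 19.6, 15.0 and 19.3 FPKM, all above saline, and rose by 0.50 ± 0.12 (adjusted p = 0.0182). The Spry4 call was lost without 2-week library 1 (0.0507) or 3 (0.0744) or saline library 2 (0.0617). It was also lost by median-ratio scaling (0.0523) and quantile normalization (0.0541). With libraries scaled to equal totals, the Spry2 (0.0671) and Fgfr3 (0.0561) calls were lost. Fgfr3, Spry1, Spry2 and Spry4 also missed the threshold in 1 fit of the 11 libraries other than 4-week library 2 (adjusted p = 0.113, 0.0903, 0.166 and 0.241), and these genes and Fgfr1 had q-values of 0.0555 to 0.0877 in the authors' deposited table.

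Dusp6 was tight within the 2-week group, at 58.6, 60.0 and 60.8 FPKM, and no saline library passed 41.4. It rose by 0.64 ± 0.08 on the log2 scale (adjusted p = 0.00156). Etv4 read 0.0774, 0.0826 and 0 FPKM in saline and 1.61, 3.07 and 2.56 at 2 weeks. On the log2(FPKM + 1) scale, which understates changes of low genes, the difference was 1.67 ± 0.16. Etv5, the close relative of Etv4 that is prominent in type 2 cells, went the other way, from 54.9 ± 5.88 FPKM in saline to 16.1 ± 2.54 at 2 weeks, a fall of 1.71 ± 0.13 (adjusted p = 0.000257), and stood at 13.8 ± 2.96 after LPS.

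**Figure D1:**
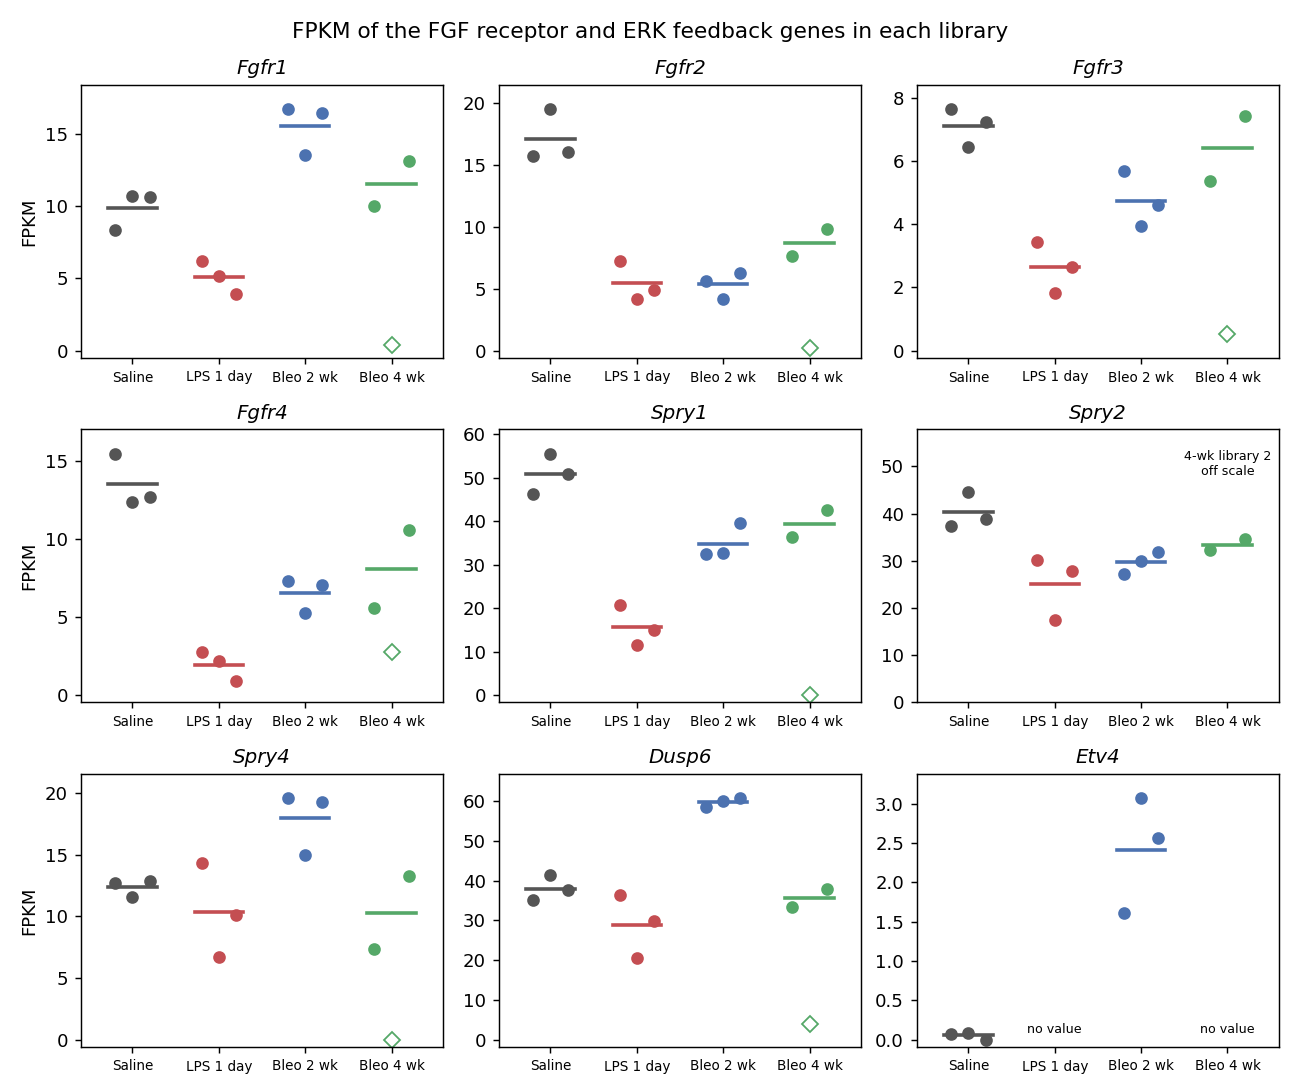
FPKM (y axis) of each of the 9 genes in each library, by group (x axis). Dots are libraries, horizontal lines are group means without 4-week library 2, and open diamonds are that library, whose Spry2 value of 244 FPKM is off the scale. Fgfr4 lies at 0.923 to 2.75 FPKM after LPS against 12.4 to 15.5 in saline, and Dusp6 at 58.6 to 60.8 at 2 weeks of bleomycin against 35.1 to 41.4.

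In FPKM as deposited, markers of alveolar type 2 cells were lower in both injuries, in which Fgfr2, Fgfr3 and Fgfr4 fell. They summed to 4936 to 9447 FPKM after LPS and 3923 to 4858 at 2 weeks, against 14956 to 19292 in saline. Of 10 markers, 7 fell and 1 rose after LPS and 9 fell at 2 weeks. Etv5 is among the 10 and also in the list of other ERK feedback genes below. After LPS 8 fell by equal totals, 9 by quantiles and 4 by median ratio. With libraries scaled to equal Epcam, 2 fell (Abca3 and Etv5) and 1 rose after LPS, with a list median of -0.32 against 0.46 over all genes. On that scale 9 fell at 2 weeks. Club cell markers summed to 5807 to 12413 FPKM after LPS and 4731 to 8198 at 2 weeks, with 4 and 6 of 6 lower, and 1 of 6 higher after LPS. Of 7 ciliated cell markers 6 fell after LPS and 4 at 2 weeks, and of 10 alveolar type 1 markers 5 fell and 1 rose in each. With equal Epcam, club markers had 4 falls and 1 rise after LPS and 2 falls at 2 weeks. On that scale 1 ciliated marker fell after LPS and 1 rose at 2 weeks, and 0 alveolar type 1 markers fell and 1 rose in each. Neutrophil markers summed to 235 to 595 FPKM in saline, 2863 to 7839 after LPS and 181 to 285 at 2 weeks, with 9 of 9 higher after LPS. Macrophage and monocyte markers summed to 102 to 145 FPKM in saline, 698 to 1124 after LPS and 640 to 938 at 2 weeks. The part of these cell types in the members' changes was not tested. No marker measured in all tables was at 0 throughout a group.

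Epcam itself fell from 38.8 to 46.2 FPKM in saline to 20.7 to 26.0 after LPS and 22.9 to 30.4 at 2 weeks. When libraries were scaled to equal Epcam, a choice made after the data were seen, the median change of all genes moved from -0.22 to 0.46 for LPS and from 0.05 to 0.54 for 2 weeks. Under that scaling, Fgfr4 (-1.71, adjusted p = 0.000889), Spry1 (-0.87, 0.00899) and Fgfr2 (-0.77, 0.00960) stayed lower after LPS than in saline; Fgfr3 (-0.52, 0.0764) and Fgfr1 (-0.12, 0.621) no longer passed, and Spry2 (0.12), Dusp6 (0.39) and Spry4 (0.47) changed sign without passing. At 2 weeks, Dusp6 (1.21, adjusted p = 0.000257), Fgfr1 (1.15, 0.00100), Spry4 (1.04, 0.00221) and Fgfr2 (-0.99, 0.00186) passed in the same direction as before. Fgfr4 (-0.42, 0.0996) and Fgfr3 (-0.01) no longer did, and Spry2 (0.14) and Spry1 (0.03) changed sign. No member changed sign against saline in either comparison when libraries were scaled to equal totals, by median ratio or to equal quantiles. Some calls were lost by these scalings, as given above.

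**Figure D2:**
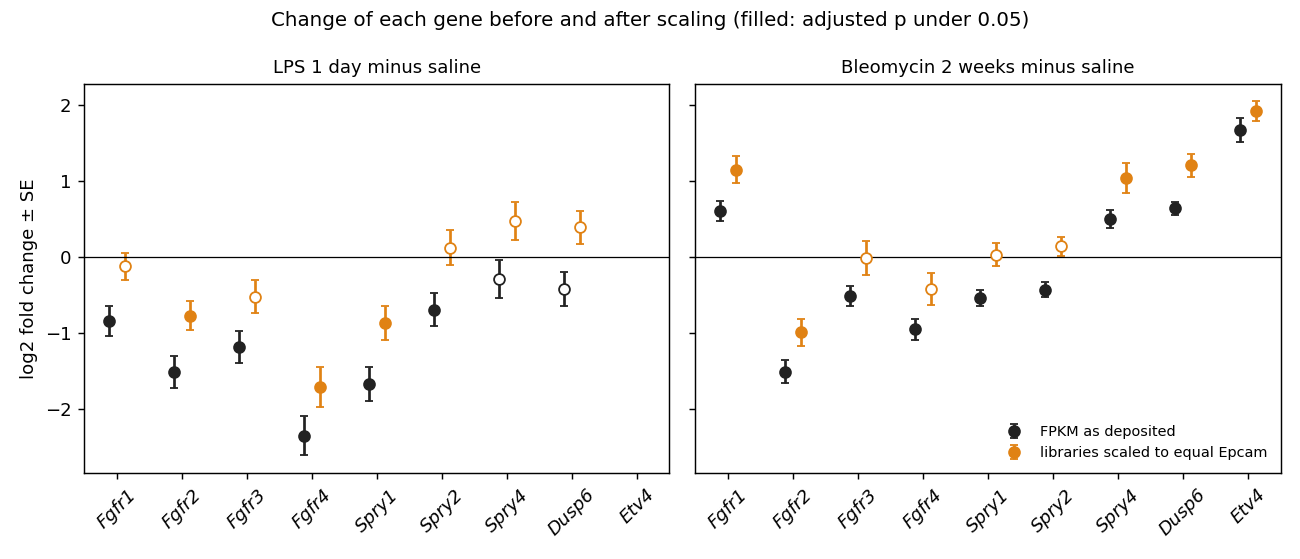
Log2 fold change ± SE of each gene (y axis) after LPS (left) and 2 weeks of bleomycin (right), for FPKM as deposited (black) and with libraries scaled to equal Epcam (orange); filled symbols have an adjusted p under 0.05. Fgfr4 and Spry1 stay below 0 after LPS on both scales, while Spry1 and Spry2 at 2 weeks lie at 0.03 and 0.14 after scaling. Etv4 is a description only, since it passed the filter only through its 2-week level.

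Shares of the receptors within a library do not change when that library is multiplied by a constant. Summed FPKM of the 4 receptors, which does change, was 47.6 ± 1.26 in saline, 15.1 ± 3.96 after LPS and 32.2 ± 4.54 at 2 weeks. Fgfr2 took 35.8 ± 3.47% of that sum in saline, 35.9 ± 4.23% after LPS and 16.6 ± 1.51% at 2 weeks. Fgfr1 went from 20.7 ± 2.76% in saline to 33.9 ± 4.08% after LPS and 48.4 ± 1.55% at 2 weeks. Fgfr4 went from 28.5 ± 3.94% to 12.7 ± 4.67% after LPS and 20.3 ± 0.576% at 2 weeks, and Fgfr3 held 15.0 ± 1.62%, 17.5 ± 3.96% and 14.7 ± 1.35%. Fgfr2 led Fgfr1 in every saline library and Fgfr1 led Fgfr2 in every 2-week library. The log2 ratio of Fgfr1 to Fgfr2 was -0.79 ± 0.18 in saline, -0.08 ± 0.34 after LPS, 1.55 ± 0.16 at 2 weeks and 0.60 ± 0.34 at 4 weeks with library 2 included, where it read 0.99, against 0.39 in library 1 and 0.42 in the unnumbered library. Fgfr1 held 35.0% and 32.0% of the sum in the other 4-week libraries and 9.55% in library 2. In an exact two-sided permutation test of 3 against 3 libraries, 4-week library 2 included, each of the 4 comparisons made gave p = 0.1 (0.1 adjusted over the 4), the smallest this design allows.

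**Figure D3:**
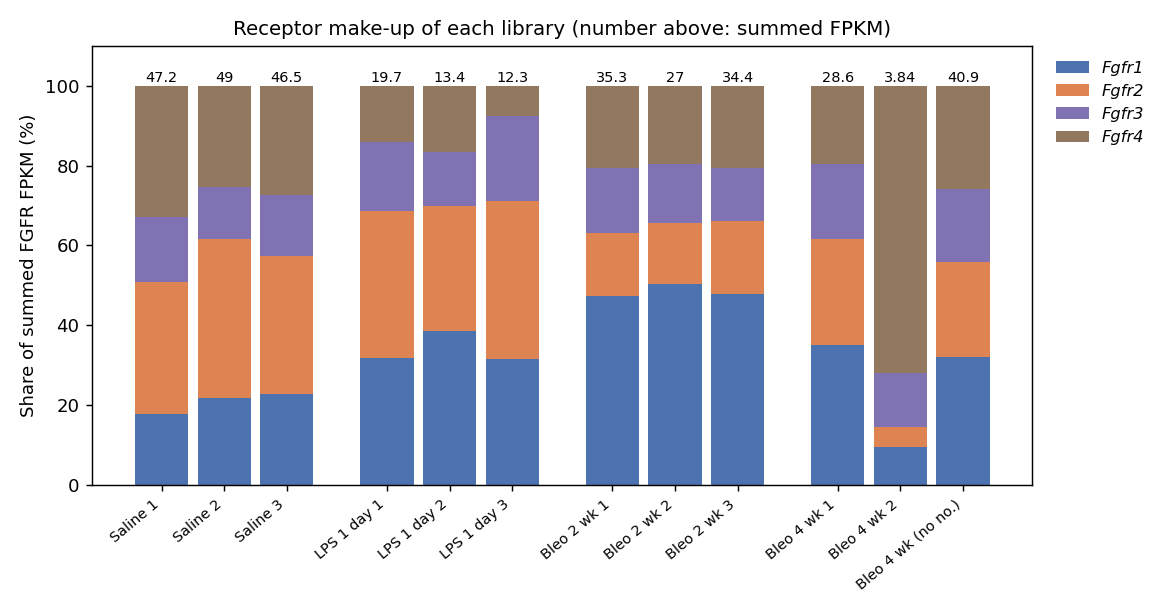
Share of each FGF receptor in the summed receptor FPKM (y axis, %) of each library (x axis), with the sum printed above each bar. Fgfr1 holds 47.3 to 50.2% in the 2-week libraries against 17.6 to 22.8% in saline; 4-week library 2 has a sum of 3.84 FPKM.

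The injuries were also set against each other directly, without the saline libraries. LPS libraries were lower than 2-week bleomycin libraries for 6 of the 8 genes tested, against 23.8% of all 12488 genes. Fgfr1 (-1.45 ± 0.20, adjusted p = 0.000745), Fgfr4 (-1.40 ± 0.26, 0.00354), Spry1 (-1.13 ± 0.22, 0.00464) and Dusp6 (-1.06 ± 0.22, 0.00549) passed, and Spry4 (-0.79 ± 0.25, 0.0383) and Fgfr3 (-0.67 ± 0.22, 0.0397) did so narrowly. The same 6 genes had no overlap between groups, which 36.6% of all genes did in that direction. Fgfr2 differed by 0.00 ± 0.23 (adjusted p = 0.999, 95% interval -0.51 to 0.52) and Spry2 by -0.26 ± 0.22 (0.358). With libraries scaled to equal Epcam, Spry4 (adjusted p = 0.146) and Fgfr3 (0.158) no longer passed. The Spry4 and Fgfr3 calls were lost without any 1 of the 2-week libraries (Spry4 0.121, 0.0632 and 0.116; Fgfr3 0.145, 0.0712 and 0.114 without libraries 1, 2 and 3) and without LPS library 2 (0.0734 and 0.0873) or 3 (0.120 and 0.107), and by median ratio (0.154 and 0.142) and quantiles (0.0710 and 0.231).

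At 4 weeks of bleomycin, the mean of the libraries other than number 2 lay nearer to the saline mean than the 2-week mean did for 8 of 8 members with a value, as a description without a test. All 8 had passed against saline at 2 weeks, and the share over all genes was not counted, so the count is not read as a recovery. No member passed against saline: 0 of 8 in the fit of all 6 libraries, where 0.0% of 12325 genes passed and 0 members and 302 genes (2.45%) had an unadjusted p under 0.05, and 0 of 8 without library 2, where 1.44% of 12284 genes passed and 3 members and 2600 genes (21.2%) had an unadjusted p under 0.05. The 3 members were Fgfr2, Fgfr4 and Spry1. The authors' deposited table gave a q-value under 0.05 for none of the 8.

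Fgfr2 read 7.65 and 9.79 FPKM in 4-week library 1 and the unnumbered library, both below every saline library, and 0.184 in library 2. The change without library 2 was -0.90 ± 0.16 (adjusted p = 0.0549). Fgfr4 read 5.60 and 10.6 FPKM, and 2.76 in library 2 (-0.73 ± 0.25 without it, adjusted p = 0.172). Spry1 read 36.4 and 42.5 FPKM, below saline, and was listed at 0 in library 2 (-0.36 ± 0.14 without it, adjusted p = 0.199). With Spry2, at 32.2 and 34.7 FPKM but 244 in library 2, these were the 4 members that did not overlap with saline when library 2 was left out, all lower, against 29.8% of all genes.

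In the same libraries type 2 markers summed to 12554 to 16896 FPKM, fibroblast and smooth muscle markers to 3365 to 3768 and neutrophil markers to 135 to 220. Macrophage and monocyte markers summed to 283 FPKM in each, above the 102 to 145 of saline, with 3 of 11 higher by the test.

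Fgfr1 read 10.0 and 13.1 FPKM at 4 weeks and 0.366 in library 2, Fgfr3 5.38 and 7.41 and 0.526, and Spry4 7.33 and 13.3 and 0. The 4-week and saline ranges of each of these genes overlapped; for Spry4 no 4-week library lay within the saline range, since the libraries lay on both sides of it. Dusp6 read 33.5 and 38.0 FPKM, beside or within the saline range, and 3.97 in library 2. Against 2 weeks of bleomycin, 0 of 8 members and 0.0% of 12472 genes passed with all 6 libraries, and 0 members and 690 genes (5.53%) had an unadjusted p under 0.05. Without library 2, Dusp6 was lower at 4 weeks than at 2 (-0.73 ± 0.13, adjusted p = 0.0177), 1 of 8 members against 7.34% of genes lower, but not in the fit of 11 libraries (0.0645). Spry4 (-0.79 ± 0.24, 0.0799) and Fgfr2 (0.62 ± 0.19, 0.0817) did not pass.

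**Figure D4:**
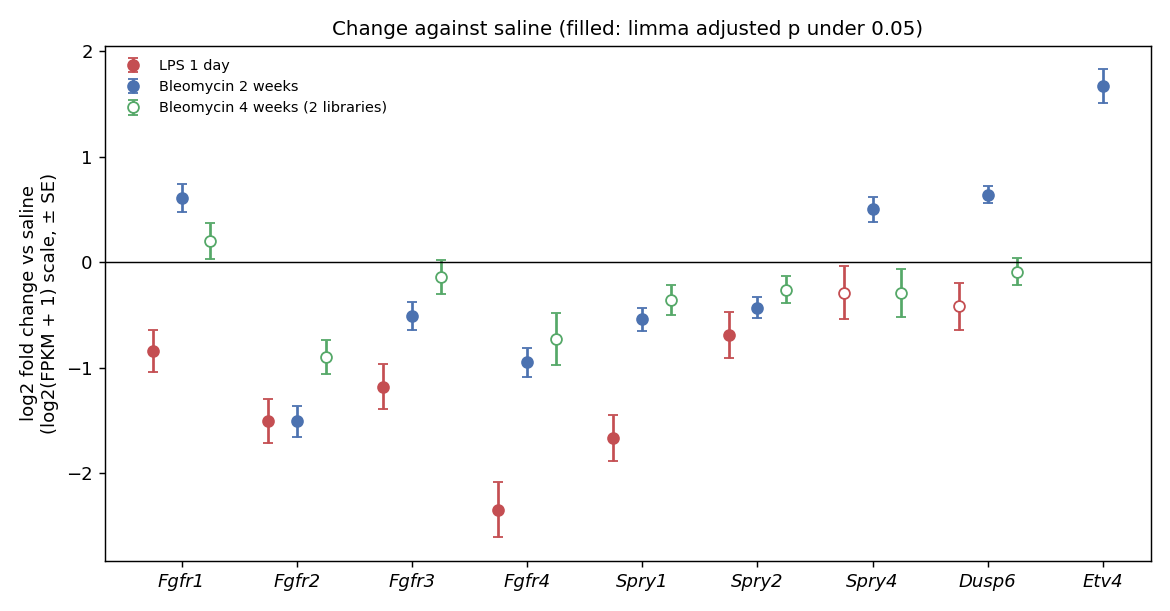
Log2 fold change against saline ± SE (y axis) of each gene (x axis) for LPS, 2 weeks of bleomycin and 4 weeks of bleomycin without library 2; filled symbols have a limma adjusted p under 0.05. Fgfr2 sits at -1.51 in both early groups and -0.90 at 4 weeks, and Fgfr1 at -0.84 after LPS and 0.61 at 2 weeks. Etv4 is a description only, since it passed the filter only through its 2-week level.

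The rest of the pathway was described from lists of named genes. Their counts are read against the shares of all genes, 25.9% lower and 14.2% higher after LPS and 11.8% lower and 18.0% higher at 2 weeks. Among FGF ligand genes, 6 of 7 tested fell after LPS and 1 rose, with a median of -1.12 against -0.22 for all genes. Fgf10, the mesenchymal ligand of epithelial Fgfr2, went from 9.19 ± 1.25 to 2.38 ± 1.02 FPKM (-1.63 ± 0.24, adjusted p = 0.00118), and Fgf1, which binds all FGF receptors, from 24.6 ± 4.49 to 6.52 ± 1.87 (-1.78 ± 0.22, 0.000593). These were the 2 ligand calls that held when any 1 library was left out. Fgf7, from 14.5 ± 0.279 to 6.77 ± 3.81 FPKM, and Fgf2, from 5.0 ± 0.209 to 1.43 ± 2.26, passed (adjusted p = 0.0240 and 0.0278), but not without LPS library 3 or any 1 saline library, nor Fgf2 without LPS library 2 (up to 0.0902 and 0.136). The LPS libraries of Fgf2 read 4.04, 0.0391 and 0.209 FPKM. Fgf23, a hormone-like ligand, was the one counted as higher (0.667 ± 0.127 to 2.47 ± 1.56 FPKM). Its saline libraries were all under 1 FPKM, so it passed the filter only through the injured groups, after LPS and at 2 weeks, and its direction was fixed by that.

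At 2 weeks of bleomycin the ligands showed 3 rises and 1 fall of 7. Fgf23, tested only through its 2-week level of 5.97 ± 1.48 FPKM, is one of the 3. Fgf2 rose to 11.9 ± 1.78 FPKM (1.09 ± 0.11, adjusted p = 0.000690) and Fgf18 from 3.98 ± 1.27 to 7.46 ± 0.971 (0.79 ± 0.20, 0.0252). Fgf1 fell to 15.2 ± 1.92 FPKM (-0.65 ± 0.15, 0.0185). Single omissions ended the calls of Fgf18 (2-week library 1 or 3, up to 0.0866) and Fgf1 (2-week library 1 or 2, saline library 2 or 3, up to 0.0662). Fgf10 at 10.0 ± 1.25 FPKM (adjusted p = 0.533) and Fgf7 at 13.2 ± 2.22 (0.429) did not pass. Fgf10 and Fgf7 are genes of mesenchymal cells in the mouse lung. The fibroblast marker sums given above were 2930 to 3588 FPKM in saline, 1157 to 1599 after LPS and 3004 to 3604 at 2 weeks. Of those 14 markers, 1 rose and 8 fell after LPS, and 6 rose and 2 fell at 2 weeks. The falls after LPS moved with scaling, to 11 by equal totals, 12 by quantiles, 5 by median ratio and 2 with equal Epcam. In each of these 1 rose. At 2 weeks equal Epcam gave 9 rises and 1 fall. The part of mesenchymal RNA in the ligand values was not tested.

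Of 23 coreceptor and heparan sulfate genes, 12 fell and 1 rose after LPS, where 25.9% and 14.2% of all genes did, and 2 fell and 10 rose at 2 weeks, against 11.8% and 18.0%. Hs6st2, one of the 12, passed the filter only through saline. Gpc3, a glypican, went from 140 ± 18.6 FPKM to 38.4 ± 13.1 after LPS (-1.89 ± 0.26, adjusted p = 0.000835), and Sdc2, a syndecan, from 42.7 ± 1.94 to 13.1 ± 5.55 (-1.70 ± 0.25, 0.00126); at 2 weeks Gpc3 stood at 155 ± 10.9 and Sdc2 at 48.5 ± 5.18, without passing. At 2 weeks Gpc1 rose from 7.63 ± 0.326 to 19.0 ± 1.2 FPKM (1.21 ± 0.08, 0.000185) and Sulf1, a sulfatase that trims heparan sulfate, from 4.56 ± 0.683 to 12.3 ± 1.71 (1.25 ± 0.13, 0.000724). Fgfbp1, which carries FGFs from the matrix, fell to 1.65 ± 0.220 FPKM from 6.58 ± 0.593 (-1.52 ± 0.11, 0.000193). Sdc3 rose in both, to 27.4 ± 1.29 FPKM after LPS and 31.6 ± 3.26 at 2 weeks from 14.2 ± 3.13. In the direct comparison, 17 of 22 coreceptor genes and 7 of 7 ligands were lower after LPS than at 2 weeks, against 23.8% of all genes. By median ratio these were 14 and 5, and by quantiles 15 and 4.

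Between receptor and kinase, of 12 adaptor genes tested after LPS, 5 fell and 1 rose; Gab1, a docking protein, fell from 11.6 ± 0.726 to 5.69 ± 1.04 FPKM (-0.92 ± 0.18, adjusted p = 0.00442), the only adaptor call that held without each library in turn. At 2 weeks 2 of 13 rose and 1 fell. In the RAS to ERK chain of 17 genes, Rras2 was the 1 that passed after LPS, lower, and Nras and Shoc2 the 2 that passed at 2 weeks, higher; all of these calls were lost when some single library was left out.

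Among the other ERK feedback genes, 5 of 9 fell after LPS and 1 rose. Etv5 fell most (-1.94 ± 0.19, adjusted p = 0.000189), and Spred2, an inhibitor related to Sprouty, went from 7.86 ± 0.202 to 3.39 ± 1.25 FPKM (-1.05 ± 0.22, 0.00708). Dusp5, a nuclear ERK phosphatase, was higher, at 66.6 ± 11.8 against 38.0 ± 7.61 FPKM (0.80 ± 0.20, 0.0146), though not without saline library 2 or 3 (up to 0.0721). At 2 weeks Etv5 fell and Spred1 rose (11.1 ± 1.11 to 16.2 ± 1.90 FPKM, 0.0154, up to 0.0649 without 2-week library 2 or 3 or saline library 3), and the other 7 did not pass. Of 17 genes for transcription factors and other targets that ERK induces, many of them immediate early genes that stress kinases also induce, 7 fell and 0 rose after LPS, against 25.9% and 14.2% of all genes, and 7 fell and 2 rose at 2 weeks, against 11.8% and 18.0%. Egr1 went from 567 ± 33.4 FPKM to 183 ± 44.1 after LPS and 241 ± 48.8 at 2 weeks, and Jun from 823 ± 82.3 to 328 ± 43.2 and 423 ± 93.3, all past the threshold. Ccnd1 and Elk1 were the 2 that rose at 2 weeks, Ccnd1 from 31.8 ± 0.744 to 43.5 ± 2.38 FPKM (0.44 ± 0.07, adjusted p = 0.00476). Another 5 dual specificity phosphatase genes were listed apart from the ERK feedback genes, although not all of them spare ERK. Of these, 2 rose and 2 fell after LPS and 3 fell at 2 weeks. Dusp2 rose from 17.8 ± 7.07 to 48.4 ± 7.03 FPKM after LPS (1.45 ± 0.26, adjusted p = 0.00335) and Dusp16 from 11.2 ± 1.25 to 20.3 ± 0.882 (0.81 ± 0.16, 0.00488), both also with any 1 library left out. Dusp10 fell in both injuries, from 10.7 ± 0.421 to 4.76 ± 0.324 FPKM after LPS and 6.69 ± 0.328 at 2 weeks, a call lost by Epcam scaling. Over the 7 lists, 44 genes passed after LPS and 21 of them in every fit with 1 library left out. At 2 weeks the numbers were 35 and 23. Hs6st2 after LPS and Fgf23 at 2 weeks are not among the 21 and 23. They passed wherever tested, but the filter on low values dropped them from some of these fits.

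Directions of these lists depended on scaling to Epcam. On that scale most calls over all genes were higher in both injuries, with counts given in the closing section, and list counts are read against that. The median change over all genes was 0.46 after LPS and 0.54 at 2 weeks. List medians were -0.37 and 0.64 for ligands, -0.07 and 0.75 for coreceptors and 0.63 and 0.59 for the kinase chain. They were 0.17 and 0.65 for other feedback genes and 0.34 and 0.14 for ERK-induced transcription genes. Under that scaling the ligands had 1 rise and 2 falls (Fgf1 and Fgf10) after LPS and 6 rises and 0 falls at 2 weeks, the coreceptor list 6 rises and 3 falls after LPS and 17 rises and 1 fall at 2 weeks, and the kinase chain 8 and 14 rises of 17 with 0 falls. The other feedback genes then had 3 rises and 2 falls after LPS and 6 rises and 1 fall at 2 weeks, and the ERK-induced transcription genes 4 rises and 3 falls, then 6 rises and 2 falls. Etv5, Egr1 and Fosb fell in both injuries on that scale too. By equal totals, median ratio or quantiles the ligand counts stayed at 1 rise with 5 or 6 falls after LPS and 3 rises with 1 fall at 2 weeks, while the kinase chain had 3 rises and 0 falls after LPS by median ratio.

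**Figure D5:**
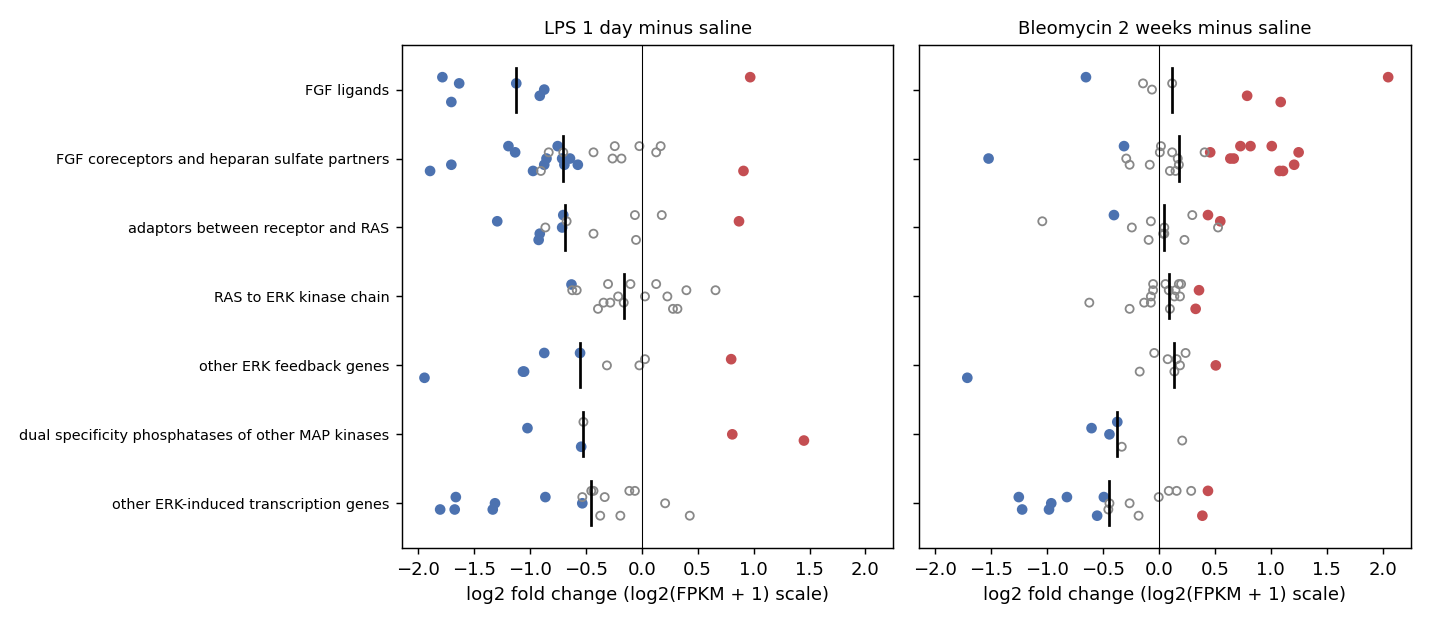
Log2 fold change (x axis) of each tested gene in the 7 pathway lists (y axis), after LPS (left) and 2 weeks of bleomycin (right). Filled symbols passed the test, red higher and blue lower; open grey symbols did not; black lines are list medians. The ligand median is -1.12 after LPS and 0.12 at 2 weeks. The list labelled as phosphatases of other MAP kinases is not confined to phosphatases that spare ERK.

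The genes whose pattern lay nearest to each member were found by the root mean square difference of log2 fold change from the saline mean over 8 treated libraries (4-week library 2 left out), among 7531 genes with a mean of at least 5 FPKM. For Fgfr2 these were Ppl (0.23), Galnt15 (0.24) and Egr1 (0.28), set against a root mean square change of Fgfr2 itself of 1.40. For Fgfr4, with a change of 1.63, they were Cpm (0.24), Cyp27a1 (0.28) and Lrat (0.30). Manba (0.12), Ptgfrn (0.14) and Man2a2 (0.16) lay nearest to Fgfr1, Cdc42bpg and Cyr61 (0.14 each) to Spry1, and Sgk1 (0.15) to Spry4. Zswim6 (0.11), Bmp2k (0.15) and Hs6st1 (0.15), a heparan sulfate sulfotransferase, lay nearest to Dusp6. Among the 8 members with values in all groups the closest pair was Spry4 and Dusp6, at 0.25. Dusp6 ranked 27 among all genes by likeness to Spry4, and Spry4 ranked 73 by likeness to Dusp6. The nearest member lay at 0.67 for Fgfr2 and 0.62 for Fgfr4 (Spry1 in both), 0.38 for Fgfr1 (Dusp6) and 0.36 for Fgfr3, Spry1 and Spry2. Among all genes these nearest members ranked 195 for Fgfr2, 84 for Fgfr4, 229 for Fgfr1, 288 for Fgfr3, 136 for Spry1 and 799 for Spry2.

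Some of these genes share exons with neighbours in the GENCODE annotation of GRCm38, and the sources used here do not give the strand setting of the counting. Gm42922, on the opposite strand, covers 24.4% of the exonic bases of Spry1, and G630022F23Rik 13.9% of those of Fgfr3. Ctbp2 on the same strand covers 3.04% of Fgfr2 and Gm16159 on the opposite strand 1.66% of Fgfr1, and no other gene covers exons of Fgfr4, Spry2, Spry4, Dusp6 or Etv4. How many reads of Spry1 and Fgfr3 came from those neighbours was not tested.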

How the data were processed

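RNA sequencing of 12 libraries was used, 3 in each of 4 groups assigned by sample title. HISAT2, StringTie and mm10 appear in the submitters' processing notes, with neither version nor role. The authors deposited 3 tables (13755, 13984 and 13667 genes) with FPKM per library, per the file headers. Group means headed FPKM are log2(FPKM + 1) by their values; the authors also deposited a log2 fold change, a linear fold change, a p-value and a q-value. Every gene listed had a mean of about 0.5 FPKM or more in one group, and 1 line of each table was empty. FPKM steps did not give whole reads, so depth is unknown.

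Pairs of groups were compared in R 4.3.3 by limma 3.58.1 (trend, two-sided, no block) on log2(FPKM + 1), for genes with at least 1 FPKM in 3 of the 6 libraries, adjusted by Benjamini-Hochberg over all genes. The procedure was tested on simulated data. Fold changes on this scale understate changes of low genes. Named pathway genes were up to 4 per list and comparison by size of change among calls; those named for an exception, for holding in every omission, or beside a member were chosen after their values were seen. Members and lists were chosen with earlier results of these data known. Alternatives were other pseudocounts, filters, scalings, single libraries left out, a replicate block, and joint fits; scaling to Epcam was added later. Promoters are from RefSeq.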

Additional observations from a re-analysis of the deposited data

Results flagged for a closer look

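Fgfr1, Spry4 and Dusp6 drew attention because their log2 differences from saline were below 0 after LPS and above 0 at 2 weeks of bleomycin. LPS minus 2 weeks was -1.45 on the log2 scale for Fgfr1, -1.06 for Dusp6 and -0.79 for Spry4. The effects against saline share the saline libraries, so the difference was tested between the injury groups directly. The limma adjusted p-values were 0.000745, 0.00549 and 0.0383, in that order. Genes picked for these signs had to be lower after LPS than at 2 weeks, so the tests are not separate support. The Spry4 call was lost by Epcam scaling (0.146), median ratio (0.154) and quantiles (0.0710). Every LPS library was below every 2-week library for each of these genes. Against saline alone, Fgfr1 passed in both injuries, while Spry4 and Dusp6 passed only at 2 weeks. With libraries scaled to equal Epcam, the LPS changes of Dusp6 (0.39) and Spry4 (0.47) were above 0, as at 2 weeks, and neither passed. The test for a single outlying value within a group was not run on groups of 3 libraries.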

How the results depend on the processing

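After LPS 5002 genes passed; 3272 did with a 5 FPKM filter, 669 in 1 fit of 12 libraries, 2857 by the authors' deposited q-values, and 2561 to 6693 with 1 library left out. At 2 weeks 3786 passed, 134 in the fit of 12, 1773 in a fit of 11 without 4-week library 2, 8537 scaled to Epcam, and 2153 to 3282 with 1 library left out. For 4 weeks against saline 0 passed, 0 to 177 with 1 left out, 1 in the fit of 12, 195 in the fit of 11, 594 scaled to Epcam without library 2, and 1 by the authors' q-values. For LPS against 2 weeks 4273 passed, 2729 with a 5 FPKM filter, 484 in the fit of 12, and 1919 to 6473 with 1 left out. For 4 against 2 weeks 0 passed, 0 to 1155 with 1 left out, and 1 with the block, which kept only libraries 1 and 2 of each group. The same comparison had 67 in the fit of 12, 639 in the fit of 11, and 1044 scaled to Epcam without library 2. The split of higher and lower calls after LPS was 1770 and 3232, against 1225 and 3669 with equal totals, 2530 and 2109 by median ratio, 2112 and 2604 by quantiles and 5491 and 681 by Epcam; at 2 weeks it was 2290 and 1496, against 3645 and 922, 1999 and 1995, 1946 and 2013, and 8266 and 271.

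Member calls after LPS went from 6 to 1 (Fgfr4) in the fit of 12 and 3 by Epcam, with 4 to 7 when 1 library was left out. At 2 weeks they went from 9, Etv4 included, to 0 in the fit of 12, 4 in the fit of 11, 5 by Epcam and 4 by the authors' q-values, with 6 to 8 when 1 library was left out; Etv4 has no value in the joint fits. LPS against 2 weeks went from 6 to 0 in the fit of 12 (4 to 6 with 1 left out), and 4 against 2 weeks from 0 to 1 without library 2 and 2 by Epcam. The fit of 12 takes its spread also from 4-week library 2. Signs of members against saline turned, among the settings run, by Epcam alone for LPS (Spry2 0.12, Dusp6 0.39, Spry4 0.47) and 2 weeks (Spry2 0.14, Spry1 0.033). For 4 weeks they turned without library 2 and in the fit of 11 (Spry2 -0.26, Fgfr1 0.20) and by Epcam (Fgfr1 0.67, Dusp6 0.41, Spry4 0.17, Spry1 0.13, Fgfr3 0.30). For LPS against 2 weeks Fgfr2 read -0.0014 with a pseudocount of 0.1, -0.29 with equal totals and -0.19 to 0.14 with 1 library left out, and Spry2 0.057 by median ratio. For 4 against 2 weeks Fgfr4 read 0.20 by median ratio, 0.58 by quantiles, 0.22 without library 2 or in the fit of 11, and 0.15 by Epcam; Fgfr2 0.62, 0.62 and 0.55, and Fgfr3 0.53, 0.36 and 0.29, by quantiles, without library 2 and by Epcam; and Spry1 0.17 without library 2 and 0.10 by Epcam. Ranges with 1 library left out were -0.59 to 0.22 for Fgfr4, -0.98 to 0.62 for Fgfr2, -0.87 to 0.36 for Fgfr3 and -2.55 to 0.17 for Spry1 there, and -1.48 to 0.20 for Fgfr1 and -0.26 to 1.18 for Spry2 at 4 weeks against saline. For settings not described, the cause was not tested.

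Replicate numbers gave no clear pairing of the samples: 2 of 6 libraries of saline and LPS, 3 of 6 of saline and 2 weeks and 0 of 6 of LPS and 2 weeks correlated best with their own number. With so few libraries, this check cannot exclude a pairing. With the number as a block 6 members and 4885 genes passed after LPS, and 6 and 3642 for LPS against 2 weeks. At 2 weeks 9 members passed, Etv4 included although it had to differ, and 3310 genes. For 4 weeks against saline 0 and 0 passed, and 0 and 1 for 4 against 2 weeks. In these 4-week fits the block kept only libraries 1 and 2 of each group, the sparse 4-week library 2 included. The unnumbered library has no partner and was left out. Low values, such as Etv4, carry no known depth.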
